A study of Mus musculus with 10 samples.

Results

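Megakaryocyte and platelet genes were followed through 10 mouse RNA sequencing libraries as a set of 8: Pf4, Ppbp, Treml1, Itga2b, Gp1ba, Gp1bb, Gp9 and Vwf. They were chosen by name, with earlier results of these data known, and all 8 are among the 46959 gene entries of the deposited count table. The libraries fall into 5 groups of 2. Femoral (bone marrow) cells labelled as B cells, lysed without culture, came from 2KO, deltaEmu and RAG2_deficient mice of C57BL6 background. The labels do not spell out 2KO. The design text names mice that lack the immunoglobulin heavy chain enhancers Eµ and 3′RR, deltaEmu names the loss of Eµ, and wild-type femoral cells were not analysed here. RAG2_deficient names the loss of a recombinase gene that lymphocytes need to assemble antigen receptors. The labels do not give the deleted stretch, so a count over the whole of Rag2 would not check the label. CD43-negative spleen cells of wild-type mice, labelled as strain 129, spent 48 h in culture with 5 µg/ml lipopolysaccharide (LPS) and 20 ng/ml interleukin 4 (IL4). The LPS_IL4_SAHA group also received the histone deacetylase inhibitor SAHA (200 nM in the sample names, 200 ng/ml in the protocol), and the LPS_IL4 group did not. All mice were 8 to 10 weeks old. The libraries are RNA pools, so p-values measure the spread between pools only.

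Megakaryocytes are the large marrow cells that shed platelets. They derive from progenitors that can also give erythroid cells. Their alpha granules store the chemokines PF4 and PPBP, the adhesive protein von Willebrand factor (VWF) and the receptor TLT-1, encoded by Treml1. On the platelet surface, the GPIb-IX complex, built from the products of Gp1ba, Gp1bb and Gp9 with GPV, binds VWF, and the integrin αIIbβ3, whose αIIb chain Itga2b encodes, binds fibrinogen. Itga2b is also expressed by early haematopoietic progenitors, and Vwf also by endothelial cells.

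Total counts ran from 17710154 to 25544275 per library. The columns of the deposited table carry only numbers, which were matched to the number that ends each sample description. The numbers that open the sample titles give another sample for 8 of the 10 columns, with only the RAG2_deficient pair placed alike. Every comparison between groups uses the description numbers, and the marker sums below bear on the tissue only. Beside B lineage RNA, the 6 femoral libraries held RNA of many marrow lineages. Summed levels in CPM, the read counts scaled to a common library size, were 2570 to 15800 for 10 erythroid markers, 6860 to 20400 for 10 neutrophil markers and 1140 to 7480 for 8 stromal markers, beside 705 to 3210 for 10 pro-B genes. In the 4 spleen libraries, 6 mature B cell genes summed to 3100 to 4150 CPM and the 10 erythroid markers to 3.21 to 6.68 CPM. Read by the title numbers, these 4 libraries would be femoral 2KO and deltaEmu cells, and the 2KO and deltaEmu libraries cultured spleen cells. These marker sums go against that reading of the tissue. They do not check which group is which within a tissue. The 10 pro-B genes summed to 1670 to 1840 CPM in the spleen libraries, so that list does not mark pro-B cells alone. The 8 megakaryocyte and platelet genes summed to 52.3 to 86.4 CPM in the femoral libraries and 0.901 to 2.37 CPM in the spleen libraries. In such bulk samples, fewer megakaryocytes or platelets and less RNA per cell cannot be told apart. With 3 counts as the detection floor of a library, the floor lay between 0.12 and 0.178 CPM.

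The promoter windows of 4 genes are shown because their levels behaved differently across the femoral groups: those of the chemokine genes Pf4 and Ppbp, which are neighbours on chromosome 5, and those of Itga2b and Gp9, which varied less. Each window spans the RefSeq start of its gene (sequence from RefSeq, build GRCm38.p6), and 7 of the 8 genes matched a window. The Pf4 window is chr5:90772185-90772484 (plus strand), that of Ppbp chr5:90768268-90768567 (plus strand), that of Itga2b chr11:102469834-102470133 (minus strand) and that of Gp9 chr6:87777820-87778119 (plus strand). Capitals mark matches to the GATA motif GATAA or the ETS motif GGAAG, searched on both strands, where they read TTATC and CTTCC on the reverse strand.
Pf4: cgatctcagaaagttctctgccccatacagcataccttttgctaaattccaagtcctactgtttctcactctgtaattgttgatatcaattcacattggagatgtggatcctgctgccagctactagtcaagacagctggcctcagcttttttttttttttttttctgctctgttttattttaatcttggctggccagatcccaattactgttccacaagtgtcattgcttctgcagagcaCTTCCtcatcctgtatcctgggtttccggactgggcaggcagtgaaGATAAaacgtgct
Ppbp: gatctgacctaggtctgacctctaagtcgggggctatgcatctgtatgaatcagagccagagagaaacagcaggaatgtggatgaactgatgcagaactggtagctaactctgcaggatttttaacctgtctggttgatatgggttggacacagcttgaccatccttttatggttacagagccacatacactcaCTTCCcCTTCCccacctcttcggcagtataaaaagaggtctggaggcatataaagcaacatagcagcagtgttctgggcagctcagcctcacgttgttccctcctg
Itga2b: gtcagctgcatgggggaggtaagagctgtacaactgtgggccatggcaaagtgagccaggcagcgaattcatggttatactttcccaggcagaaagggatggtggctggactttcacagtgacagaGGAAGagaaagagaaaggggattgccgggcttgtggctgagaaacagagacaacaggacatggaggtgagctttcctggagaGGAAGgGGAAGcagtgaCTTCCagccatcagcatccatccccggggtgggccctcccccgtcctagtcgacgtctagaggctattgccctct
Gp9: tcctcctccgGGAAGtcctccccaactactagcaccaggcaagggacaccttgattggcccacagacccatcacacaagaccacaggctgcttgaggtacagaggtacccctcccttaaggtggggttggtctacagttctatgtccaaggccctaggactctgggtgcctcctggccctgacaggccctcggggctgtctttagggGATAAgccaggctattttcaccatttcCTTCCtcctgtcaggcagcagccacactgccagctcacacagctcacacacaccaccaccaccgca
GATAA was found in 3 of the 7 windows, those of Pf4, Gp1ba and Gp9, against 25.4% of all 32851 windows. GGAAG was found in all 7, against 71.4% of all windows, and both motifs in 3 of the 7, against 17.2%. The Ppbp and Itga2b windows held GGAAG matches without GATAA.

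Per length, Pf4 was the highest of the 8 genes in the femoral libraries. Its median over the 6 was 14.6 RPKM (CPM per kilobase of exon), followed by Itga2b at 5.98, Ppbp at 3.90 and Gp9 at 2.71 RPKM. Treml1 had a median of 0.742, Vwf 0.676, Gp1bb 0.311 and Gp1ba 0.241 RPKM. The spread across these libraries also differed between genes. The highest femoral level was 12.2 times the lowest for Ppbp, 4.98 times for Gp1ba, 4.40 times for Gp1bb and 3.91 times for Pf4, but only 1.57 times for Itga2b and 1.35 times for Vwf.

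**Figure D1:**
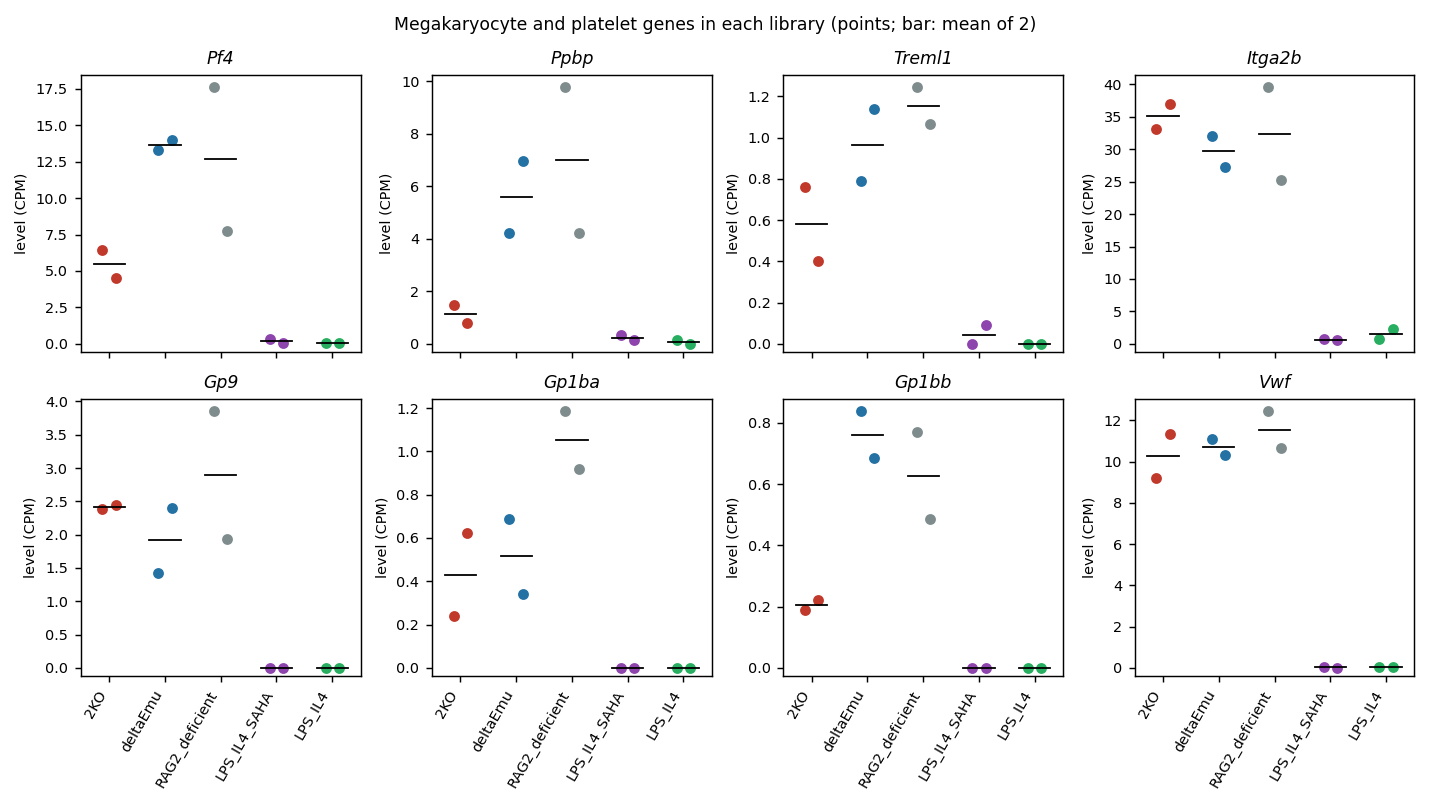
Level of each of the 8 genes (CPM, linear axis starting at 0, own scale per panel) in the 2 libraries of each group; points are libraries and bars the mean of 2. Pf4 and Ppbp sit lowest in 2KO among the femoral groups, at 4.50 to 6.47 and 0.801 to 1.48 CPM, while Itga2b and Vwf lie at similar heights in all 3 femoral groups, and the spleen groups lie at or near 0.

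Pf4 and Ppbp encode CXC chemokines that platelets release from alpha granules. Pf4 (chr5:90772435-90773383 in mm10, plus strand) stood at 6.47 and 4.50 CPM in 2KO, at 13.3 and 14 CPM in deltaEmu and at 17.6 and 7.75 CPM in RAG2_deficient. Both 2KO libraries lay below all 4 others, and the RAG2_deficient pair spanned the deltaEmu pair. The 2KO level was 2.47-fold lower than in deltaEmu (log2 -1.30 ± 0.38 SE, adjusted p = 0.134) and 2.34-fold lower than in RAG2_deficient (log2 -1.23 ± 0.38, adjusted p = 0.121), and neither difference passed the test. The difference from RAG2_deficient was -0.53 without RAG2_deficient replicate 2 (adjusted p = 0.177) and -1.70 without replicate 3, where it passed (adjusted p = 0.00931).

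Ppbp (chr5:90768518-90770063, plus strand) ends 2372 bases before Pf4 begins. It stood at 1.48 and 0.801 CPM in 2KO (31 and 18 counts), at 4.23 and 6.96 CPM in deltaEmu (86 and 122 counts) and at 9.78 and 4.21 CPM in RAG2_deficient (165 and 87 counts). Again both 2KO libraries lay below all others, and the deltaEmu and RAG2_deficient libraries overlapped. Ppbp fell 6.22-fold in 2KO against RAG2_deficient, at 1.14 ± 0.477 against 6.99 ± 3.93 CPM (SD, n = 2 each, log2 -2.64 ± 0.52, adjusted p = 0.037). With single libraries left out, the log2 value lay between -1.92 (without RAG2_deficient replicate 2) and -3.13 (without 2KO replicate 1). The call was lost with all 10 libraries in a single fit (adjusted p = 0.0612), without 2KO replicate 1 (0.0673) or 3 (0.217) and without deltaEmu replicate 5 (0.0839) or 7 (0.0847). Against deltaEmu, the 2KO level was 4.87-fold lower (log2 -2.28 ± 0.52, adjusted p = 0.0602) and did not pass. Without RAG2_deficient replicate 2 or 3 in the fit, the log2 values against deltaEmu stayed at -2.28 for Ppbp and -1.3 for Pf4.

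Treml1 (chr17:48359916-48367174, plus strand) encodes TLT-1, a receptor of the alpha granule membrane that reaches the surface of activated platelets. Its levels were 0.761 and 0.401 CPM in 2KO, 0.788 and 1.14 CPM in deltaEmu and 1.24 and 1.07 CPM in RAG2_deficient, from 9 to 22 counts per library. The 2KO libraries were the lowest pair, although the higher of them was close to the lower deltaEmu library. The log2 difference was -0.71 ± 0.49 in 2KO against deltaEmu (adjusted p = 0.557) and -1.01 ± 0.48 against RAG2_deficient (adjusted p = 0.304).

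Itga2b (chr11:102453297-102470122, minus strand), the integrin gene, had the most counts of the set. It stood at 33.2 and 36.9 CPM in 2KO, at 32.1 and 27.2 CPM in deltaEmu and at 39.6 and 25.2 CPM in RAG2_deficient. The RAG2_deficient pair held both the highest and the lowest femoral value. The log2 difference was 0.25 ± 0.22 in 2KO against deltaEmu (adjusted p = 0.663) and 0.09 ± 0.22 against RAG2_deficient (adjusted p = 0.886).

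The GPIb-IX genes were low. Gp9 (chr6:87778072-87779768, plus strand), the GPIX subunit, stood at 2.38 and 2.45 CPM in 2KO, at 1.43 and 2.4 CPM in deltaEmu and at 3.85 and 1.94 CPM in RAG2_deficient, with the 2KO pair inside the range of the others. Gp1ba (chr11:70639122-70642036, plus strand), the VWF-binding chain, had 5 to 20 counts per femoral library. It stood at 0.238 and 0.623 CPM in 2KO, at 0.689 and 0.342 CPM in deltaEmu and at 1.18 and 0.920 CPM in RAG2_deficient. The RAG2_deficient pair was highest, without passing the test against 2KO (log2 -1.29 ± 0.58, adjusted p = 0.277) or deltaEmu (log2 -1.04 ± 0.57, adjusted p = 0.303).

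Gp1bb (chr16:18620319-18622403, minus strand), the second chain of GPIb, shares 593 exon bases with Sept5 on the same strand, so its counts depend on how shared reads were assigned. It stood at 0.190 and 0.223 CPM in 2KO (4 and 5 counts), at 0.837 and 0.685 CPM in deltaEmu (17 and 12 counts) and at 0.770 and 0.484 CPM in RAG2_deficient (13 and 10 counts). Both 2KO libraries lay below the others, but the log2 differences of -1.84 ± 0.54 against deltaEmu (adjusted p = 0.134) and -1.58 ± 0.55 against RAG2_deficient (adjusted p = 0.164) did not pass. Gp9, by contrast, differed by 0.35 ± 0.43 against deltaEmu (adjusted p = 0.776) and by -0.28 ± 0.42 against RAG2_deficient (adjusted p = 0.795).

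Vwf (chr6:125546774-125686679, plus strand), the ligand of GPIb, varied least. It stood at 9.23 and 11.4 CPM in 2KO, at 11.1 and 10.3 CPM in deltaEmu and at 12.4 and 10.7 CPM in RAG2_deficient, and the 3 pairs overlapped. The log2 difference was -0.04 ± 0.21 in 2KO against deltaEmu (adjusted p = 0.951) and -0.19 ± 0.21 against RAG2_deficient (adjusted p = 0.69). Since endothelium also makes Vwf, 10 endothelial markers were summed. They gave 104 to 114 CPM in 2KO, 117 to 123 CPM in deltaEmu and 136 to 143 CPM in RAG2_deficient, and none was at 0 in all 6 femoral libraries. Pecam1 alone averaged 64.3, 77.7 and 69.4 CPM in these groups. It was as high in the spleen, at 70.2 CPM in LPS_IL4_SAHA and 63.7 CPM in LPS_IL4, so the sum largely follows a gene that is not particular to endothelium here. Most other markers averaged highest in RAG2_deficient, such as Stab2 at 6.78, 6.00 and 14.9 CPM in 2KO, deltaEmu and RAG2_deficient. Tie1 went the other way, at 8.65, 8.46 and 3.11 CPM. The list median log2 difference against RAG2_deficient was -0.94 in 2KO and -0.87 in deltaEmu. In 2KO against RAG2_deficient, 1 of these markers was called higher and 2 lower, where 4.31% of all genes tested were called in either direction. Their part in the Vwf level was not tested.

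As a set, the 8 genes gave no call in 2KO against deltaEmu with edgeR's quasi-likelihood test: 0 of 8, where 3.7% of the 16538 genes tested were called. At an unadjusted p under 0.05 there were 3 of 8 (Pf4, Ppbp and Gp1bb), where 15.7% of all genes tested had such a p. DESeq2 called 2 of 8, Pf4 (adjusted p = 0.0247) and Ppbp (adjusted p = 0.000618), and 5.74% of all genes. The median log2 difference of the 8 was -0.48, against -0.01 over all genes. In 2KO against RAG2_deficient, 1 of 8 was called, where the background was 4.31% of genes. At an unadjusted p under 0.05 the count was 3 of 8, where the share of all genes was 19.2%, and DESeq2 called 2 of 8 and 7.51% of all genes. The median of the 8 was -1.12, against 0 over all genes. The 2KO libraries enter both comparisons. In the first comparison, 6 of the 8 log2 differences were negative, and in the second 7.

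In deltaEmu against RAG2_deficient, 0 of 8 were called by edgeR, where 9.81% of all genes were called. At an unadjusted p under 0.05 the count was also 0 of 8, with 25.6% of all genes, and DESeq2 called 0 of 8 and 12.5% of all genes. The median log2 difference was -0.23, against -0.01 over all genes. Single values were 0.07 ± 0.37 for Pf4, -0.35 ± 0.46 for Ppbp, -0.17 ± 0.22 for Itga2b and -0.63 ± 0.43 for Gp9. The Pf4 and Ppbp libraries of these groups overlapped.

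**Figure D2:**
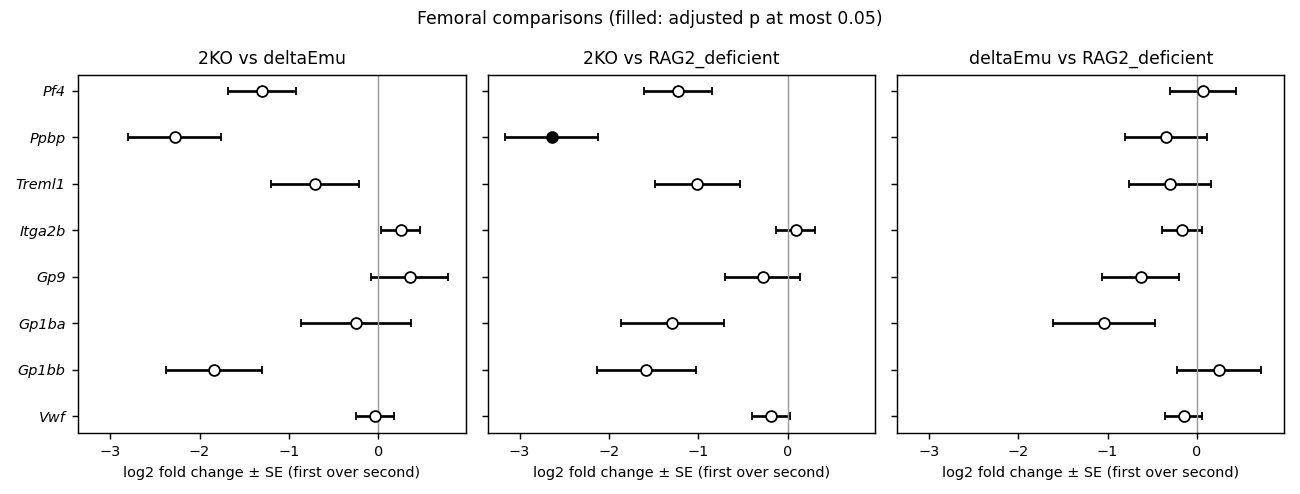
Log2 fold change ± SE of the 8 genes in the 3 femoral comparisons (first group over second); filled points have an adjusted p of at most 0.05. Ppbp in 2KO against RAG2_deficient, at -2.64, is the filled point, and Itga2b and Vwf lie at most 0.25 from the zero line in all 3 panels.

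The lineage markers of the same libraries moved between the femoral groups. Erythroid markers summed to 10600 and 15800 CPM in 2KO, to 2570 and 2670 CPM in deltaEmu and to 5810 and 3230 CPM in RAG2_deficient. All 10 were called higher in 2KO against deltaEmu, and 4 of 10 against RAG2_deficient, where 3.7% and 4.31% of all genes tested were called. Neutrophil markers summed to 10800 and 8860 CPM in 2KO, 17700 and 20400 CPM in deltaEmu and 6860 and 7520 CPM in RAG2_deficient. Stromal markers summed to 1600 and 1140, 2170 and 2250, and 7480 and 6600 CPM in the same groups. None of the 10 neutrophil markers was called in 2KO against either group, and 5 were called higher in deltaEmu against RAG2_deficient. Of the 8 stromal markers, 1 was called lower in 2KO against deltaEmu. Against RAG2_deficient, 6 were called lower in 2KO and 8 in deltaEmu. The 10 pro-B genes summed to 1160 and 705 CPM in 2KO, to 836 and 1250 CPM in deltaEmu and to 2910 and 3210 CPM in RAG2_deficient. Against RAG2_deficient, 7 of the 10 were called lower in 2KO and 6 in deltaEmu, where 4.31% and 9.81% of all genes tested were called. CPM divides by the whole library, so these sums share a total with the 8 genes. Their part in the lower Pf4 and Ppbp levels of 2KO was not tested. The 6 stem and progenitor markers stayed between 219 and 295 CPM, with a list median of -0.42 in 2KO against deltaEmu and -0.07 against RAG2_deficient.

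**Figure D3:**
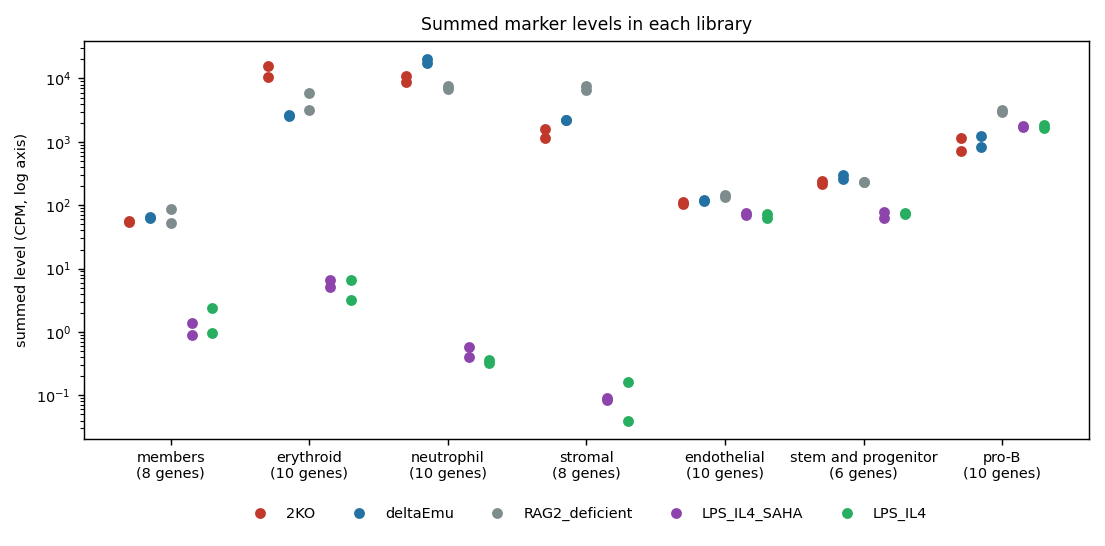
Summed level (CPM, log axis) of the 8 genes and of 6 marker lists in each library, with 1 point per library. The 8 genes lie between 52.3 and 86.4 CPM in the femoral libraries, while the erythroid sum is highest in 2KO and the stromal sum highest in RAG2_deficient.

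Ratios within a library do not depend on the library total. Per length (RPKM), Ppbp stood at 0.224 and 0.109 of the Itga2b level in 2KO, at 0.664 and 1.29 in deltaEmu and at 1.24 and 0.841 in RAG2_deficient. Pf4 stood at 1.48 and 0.920 times Itga2b in 2KO, at 3.13 and 3.89 times in deltaEmu and at 3.36 and 2.32 times in RAG2_deficient. Both ratios were lower in the 2KO pair than in every other femoral library. The ratio of Ppbp to Pf4 was also lowest in 2KO, at 0.152 and 0.119, against 0.212 and 0.332 in deltaEmu and 0.370 and 0.362 in RAG2_deficient. By smaller margins, the 2KO pair was also lowest in the ratio of Vwf to Itga2b, at 0.0945 and 0.104 against 0.107 to 0.143 in the other 4 femoral libraries, and in that of Treml1 to Itga2b, at 0.1 and 0.0474 against 0.107 to 0.185. The Vwf levels themselves overlapped between the groups. Itga2b, by which they are divided, had its highest mean in 2KO, at 35.1 CPM against 29.7 in deltaEmu and 32.4 in RAG2_deficient, although neither difference was called. The Gp9 to Itga2b ratio overlapped between groups, from 0.275 to 0.602. These ratios are given as a description, since the smallest p that an exact permutation test of 2 libraries against 2 allows is 0.333.

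**Figure D4:**
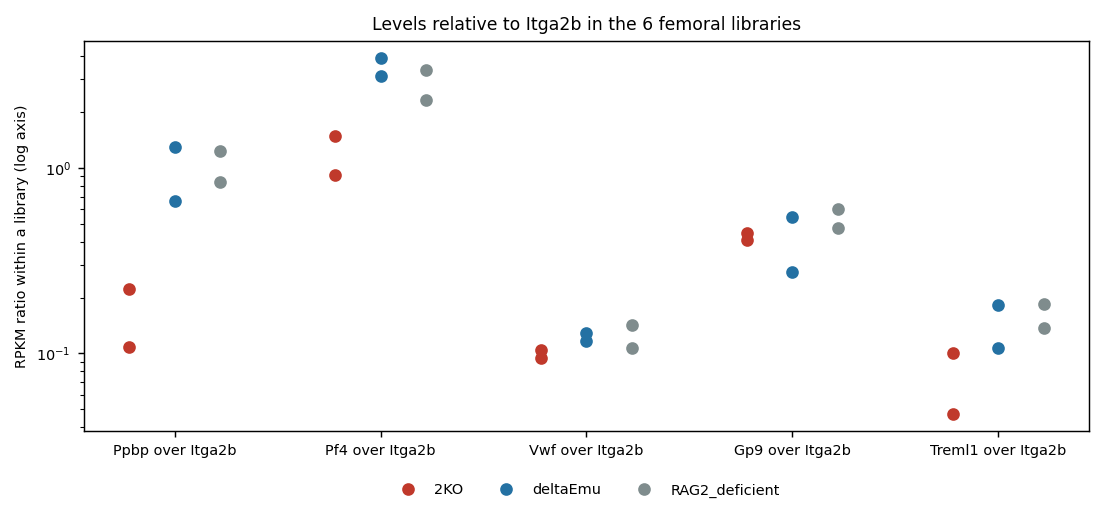
Level per length of 5 genes divided by that of Itga2b in the same femoral library (RPKM ratio, log axis; 1 point per library, coloured by group). The 2KO points lie below all others for Ppbp, at 0.109 and 0.224, and for Pf4, at 0.920 and 1.48, and closer to the others for Vwf and Treml1, while the groups overlap for Gp9.

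Other genes of the lineage were read from lists of receptors, signalling proteins, granule cargo and transcription factors. Among 16 further surface receptors, the smallest adjusted p in 2KO against deltaEmu was 0.234, for the tetraspanin Cd9 (38.6 ± 0.137 against 58.2 ± 3.60 CPM), and the list median was 0.04. Against RAG2_deficient, 2 of 16 fell in 2KO (list median -0.34), and the same 2 fell in deltaEmu (list median -0.59). They were Pear1, a receptor that acts on platelet contact, and Tbxa2r, the thromboxane receptor. Of all genes tested, 4.31% were called in 2KO and 9.81% in deltaEmu against RAG2_deficient, in either direction. Pear1 averaged 11.4 ± 1.42 CPM in 2KO, 9.34 ± 0.749 CPM in deltaEmu and 25.4 ± 5.85 CPM in RAG2_deficient (adjusted p = 0.0332 for 2KO and 0.00832 for deltaEmu). Tbxa2r averaged 6.76 ± 1.95, 7.23 ± 1.87 and 17.5 ± 3.69 CPM in the same groups (adjusted p = 0.0454 and 0.0333). In the spleen, Pear1 averaged 6.82 CPM in LPS_IL4_SAHA and 7.51 CPM in LPS_IL4, so it is not particular to the lineage here. The collagen receptor gene Gp6, at 0.163 ± 0.105 CPM in 2KO against 1.10 ± 0.457 CPM in RAG2_deficient, did not pass (adjusted p = 0.0568). Both comparisons use the same RAG2_deficient libraries. The Pear1 and Tbxa2r calls were lost without deltaEmu replicate 5 or 7, and those of 2KO also without 2KO replicate 1 or 3, with adjusted p up to 0.258 for Pear1 and 0.32 for Tbxa2r. Tbxa2r in 2KO was also lost with all 10 libraries in a single fit (adjusted p = 0.0582).

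Of 15 signalling and cytoskeletal genes, 1 fell in 2KO against deltaEmu and 2 against RAG2_deficient (list medians -0.31 and -0.18). The shares of all genes called were 3.7% and 4.31%. Alox12, the platelet-type 12-lipoxygenase, averaged 0.388 ± 0.144 CPM in 2KO, against 1.98 ± 0.0197 CPM in deltaEmu (log2 -2.32 ± 0.42, adjusted p = 0.025) and 3.38 ± 0.668 CPM in RAG2_deficient (log2 -3.12 ± 0.41, adjusted p = 0.00888). Its direction was that of Ppbp, with both 2KO libraries lowest. Myl9, a myosin light chain of megakaryocytes and smooth muscle, averaged 1.5 ± 0.364 CPM in 2KO and 1.08 ± 0.000751 CPM in deltaEmu, against 6.32 ± 2.37 CPM in RAG2_deficient (adjusted p = 0.0274 and 0.00786). Stx11, a syntaxin of platelet secretion, rose in deltaEmu against RAG2_deficient (43.0 ± 5.61 against 24.7 ± 0.113 CPM, adjusted p = 0.0246). So 1 of the 15 rose and 1 fell there (list median 0.17), where 9.81% of all genes tested were called. In the spleen, Stx11 averaged 25.05 CPM in LPS_IL4_SAHA and 27.06 CPM in LPS_IL4, so it is not particular to the lineage here. Rab27b, a GTPase of platelet granules, stood at 3.81 ± 0.538 CPM in 2KO without passing against 8.12 ± 1.32 CPM in deltaEmu (adjusted p = 0.0627). Leaving out 2KO replicate 1 or 3 or deltaEmu replicate 5 or 7 ended the calls of Alox12 against deltaEmu (adjusted p up to 0.203), of Myl9 in 2KO (up to 0.207) and of Stx11 (up to 0.251). Alox12 against deltaEmu was also lost with all 10 libraries in a single fit (0.0582). Alox12 against RAG2_deficient was lost without 2KO replicate 1 (0.0521), and Myl9 in deltaEmu without deltaEmu replicate 5 or 7 (up to 0.109).

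Of 11 granule cargo genes, 1 rose in 2KO against deltaEmu, 1 rose and 2 fell in 2KO against RAG2_deficient, and 2 fell in deltaEmu against RAG2_deficient (list medians -0.24, -0.44 and -0.10). The shares of all genes called in these comparisons were 3.7%, 4.31% and 9.81%. Thbs1 rose in 2KO against both groups, at 462 ± 13.2 CPM in 2KO, against 207 ± 55.6 CPM in deltaEmu (adjusted p = 0.0338) and 196 ± 5.95 CPM in RAG2_deficient (adjusted p = 0.0325). Thrombospondin 1 is also made by monocytes and other cells. Sparc and Mmrn1 fell in 2KO and in deltaEmu against RAG2_deficient. Sparc averaged 98.6 ± 21.5, 206 ± 11.9 and 691 ± 90.4 CPM in 2KO, deltaEmu and RAG2_deficient (adjusted p = 0.00152 and 0.00477 for the first and the second against RAG2_deficient), and Mmrn1, multimerin 1, 19.7 ± 2.88, 19.0 ± 2.20 and 79.1 ± 16.1 CPM (adjusted p = 0.00305 and 0.00164). Stromal cells express Sparc too, and 6 of 8 stromal markers fell in 2KO and 8 of 8 in deltaEmu against RAG2_deficient. Their part in the Sparc and Mmrn1 differences was not tested. The Thbs1 calls were lost without 2KO replicate 1 or 3 or deltaEmu replicate 5 or 7 (adjusted p up to 0.36 against deltaEmu and 0.187 against RAG2_deficient), and that of Sparc in deltaEmu without deltaEmu replicate 5 or 7 (up to 0.0929).

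Of 14 transcription factors of the lineage, 2 rose in 2KO against deltaEmu and 1 against RAG2_deficient (list medians 0.23 and 0.28). The shares of all genes called were 3.7% and 4.31%. Tal1 averaged 116 ± 50.2 CPM in 2KO, against 39.2 ± 1.11 CPM in deltaEmu (log2 1.58 ± 0.28, adjusted p = 0.0231) and 45.6 ± 3.24 CPM in RAG2_deficient (adjusted p = 0.0431). Zfpm1, the GATA1 cofactor FOG1, averaged 77.4 ± 20.2 CPM in 2KO, against 35.9 ± 0.144 CPM in deltaEmu (log2 1.12 ± 0.20, adjusted p = 0.0243). Gata1 stood at 55.7 ± 18.8 CPM in 2KO and 27.5 ± 9.67 CPM in RAG2_deficient without passing (adjusted p = 0.105). Erythroid cells express Tal1, Zfpm1 and Gata1 as well, and all 10 erythroid markers were called higher in 2KO against deltaEmu and 4 of 10 against RAG2_deficient. Their part in these factors' levels was not tested. Of the 22 list calls named in the femoral comparisons here and in the neighbouring gene clusters, 3 held under all 11 alternative settings, namely Sparc in 2KO and Mmrn1 in both groups against RAG2_deficient, and none reversed. The Tal1 and Zfpm1 calls were lost without 2KO replicate 3 or deltaEmu replicate 5 or 7 (adjusted p up to 0.251 and 0.253 against deltaEmu), and that of Tal1 against RAG2_deficient (up to 0.228) also without RAG2_deficient replicate 3.

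Likeness to the set was measured as the root mean square difference in centred log2(CPM + 0.5) over the 6 femoral libraries. The profile was the mean of the 5 members with at least 1 CPM on average. It stood at -0.34 and -0.46 in 2KO, 0.03 and 0.23 in deltaEmu and 0.66 and -0.13 in RAG2_deficient. Among 12333 other genes, H2-Oa (0.0661), Gng11 (0.0812), Tmem106c (0.109), Aif1 (0.114) and Nudt14 (0.116) were nearest. H2-M3, Ang and Cebpzos (each 0.124), Pafah1b3 (0.128) and Tspan9 (0.133) followed. Only Gng11 is on the lists above. The members lay farther from their own mean profile, from 0.32 for Vwf and 0.331 for Pf4 to 0.696 for Ppbp.

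In the cultured spleen cells, the set was at or near the floor. The groups follow the descriptions, and the titles would exchange them and turn the sign of each difference. Gp1ba, Gp1bb and Gp9 had 0 counts in all 4 libraries, which allows up to 0.12 to 0.161 CPM per library. Vwf had 1 count in LPS_IL4_SAHA and 2 in LPS_IL4, and Treml1 had 2 and 0. Pf4 stood at 0.334 and 0.0901 CPM in LPS_IL4_SAHA (8 and 2 counts), against 0.0538 and 0.0401 CPM in LPS_IL4 (1 count each), a ratio of 4.71 (counting interval 1 to 44.2). Ppbp stood at 0.334 and 0.135 CPM in LPS_IL4_SAHA (8 and 3 counts), against 0.161 and 0 CPM in LPS_IL4 (3 and 0 counts), a ratio of 3.46 (counting interval 0.913 to 19.3). The intervals are 95% and cover counting error only. Only Itga2b passed the filter on low counts. It stood at 0.668 and 0.586 CPM in LPS_IL4_SAHA, against 0.699 and 2.29 CPM in LPS_IL4 (log2 -1.31 ± 0.65, adjusted p = 0.939). So 0 of 1 gene tested was called by edgeR, 0 at an unadjusted p under 0.05 and 0 by DESeq2, where edgeR and DESeq2 each called 0% of 13913 genes and 187 (1.34%) had an unadjusted p under 0.05. Without LPS_IL4 replicate 4_et_7, the Itga2b value became -1.87. The lone LPS_IL4 library was then replicate 6_et_8, the one at 2.29 CPM, assumed to vary like the other group.

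All 8 genes were higher in the femoral libraries than in the spleen libraries, with no overlap between the tissues. Only Itga2b passed the filter on low counts within the spleen, so the other genes entered this test through their high femoral counts. Their adjusted p-values therefore add no support and describe the levels only. Of all 17483 genes tested, 71.4% were called in either direction, 40.9% were called higher and 32.1% were called higher with no overlap. Pf4 averaged 10.6 CPM in femoral and 0.13 CPM in spleen libraries (log2 6.52 ± 0.45, adjusted p = 9.68e-07), Ppbp 4.58 and 0.158 CPM (log2 4.70 ± 0.57, adjusted p = 5e-05) and Itga2b 32.4 and 1.06 CPM (log2 5.03 ± 0.31, adjusted p = 4.96e-07). Against the floor of 3 counts per library, Gp9 was at least 17.8-fold higher in femoral libraries, Gp1ba at least 4.92-fold and Gp1bb at least 3.92-fold. The ratio was 323 for Vwf (counting interval 110 to 1570) and 39.2 for Treml1 (10.6 to 328). With bounds and count ratios in place of fitted values, the median log2 difference was 4.86, against a fitted median of 0.21 over all genes. All 10 erythroid, 10 neutrophil and 8 stromal markers were higher in the femoral libraries too. Tissue, strain, culture and genotype differ together between these libraries and cannot be told apart.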

How the data were processed

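RNA was sequenced from 10 libraries, 2 for each of 5 groups. Per the labels' protocols, total RNA (500 ng) from a miRNeasy kit went into TruSeq stranded libraries. The authors deposited a single table that gives the raw read count of each gene, with 100 entries for control sequences (0 to 17 counts per library) that stayed out of library sizes and tests. Per the submitters' processing notes, STAR 2.4.0a, featureCounts and Subread 1.4.6-p1 were used with mm10/GRCm38. How reads with several matches and strand were handled, and with which annotation release, is not given in the sources used here. Columns were read by the number that ends each description. For the spleen samples, titles and treatment fields exchange the samples with and without SAHA relative to the descriptions. The labels also number the RAG2_deficient samples in 2 ways (replicates 2 and 3 as used here), and the growth protocol names KOKI and BLACK-6 mice where the strain label says 129 and the design text wild type.

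Tests used R 4.3.3 with edgeR 4.0.16: genes were filtered with filterByExpr at a minimum count of 10, scaled by TMM and tested with the quasi-likelihood F test. The p-values were adjusted over all genes tested (Benjamini-Hochberg), and 0.05 was the threshold. Each adjusted p is from edgeR unless DESeq2 (1.42.0) is named. The 6 femoral libraries formed a fit with 3 residual degrees of freedom, the 4 spleen libraries a fit with 2, and all 10 a fit for femoral against spleen. CPM are counts scaled to TMM-adjusted library sizes over all 10 libraries, and RPKM divide them by the exon length in the deposited table. Where no error is named, ± is the SD over 2 libraries beside a level and the SE beside a log2 difference. Gene coordinates come from the deposited table. The members, the 6 pathway lists and the 10 marker lists were chosen with earlier results of these data known. From each pathway list, the 3 genes with the smallest p in each comparison were candidates for the text, where the called ones and a few others are given. Alternatives were RLE size factors, DESeq2, no filter, a fit without immunoglobulin, mitochondrial and ribosomal RNA genes, all 10 libraries in a single fit, each library left out and, in the spleen, a replicate block. The pipeline was tested on simulated counts.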

Additional observations from a re-analysis of the deposited data

Results flagged for a closer look

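Over the 4 spleen libraries, 3 of the genes had a library whose level stood apart from the others by Dixon's ratio. For normally distributed values, chance exceeds its limit in about 1 of 20 groups of samples. That rate does not hold for counts this near 0, as for Pf4 and Treml1. Itga2b was 2.29 CPM (57 counts) in LPS_IL4 replicate 6_et_8, while the other 3 spleen libraries held 0.586 to 0.699 CPM. Pf4 was 0.334 CPM (8 counts) in LPS_IL4_SAHA replicate 4_et_7, above 0.0901 CPM in the nearest library, and Ppbp also had its highest spleen value, 0.334 CPM, in that library. Treml1 was 0.0901 CPM (2 counts) in LPS_IL4_SAHA replicate 6_et_8 and 0 in the other 3, which gives a ratio of 1 whatever the size of the value. No femoral library stood apart by this measure for any of the 8 genes.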

How the results depend on the processing

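The count of the 8 genes called in 2KO against deltaEmu, 0, became 2 with DESeq2 and 2 without a filter on low counts, and ranged from 0 to 2 when single libraries were left out. In 2KO against RAG2_deficient, the count of 1 became 2 with DESeq2, 2 without a filter and 0 with all 10 libraries in a single fit, and ranged from 0 to 2. It stayed 0 in deltaEmu against RAG2_deficient (0 to 0), ranged from 0 to 1 with SAHA and stayed 8 in femoral against spleen libraries (8 to 8). The cause was not tested. With the filter, all but Itga2b entered the test of femoral against spleen libraries through their femoral counts. Of all genes, 1537 of 27469 were called without a filter in 2KO against deltaEmu and 1971 of 27469 in 2KO against RAG2_deficient. DESeq2 called 949 and 1242 of 16538 in these 2 comparisons, and the single fit of all 10 libraries 595 and 509 of 17483. The counts of all genes called with single libraries left out ranged from 119 to 1587, 153 to 3222, 259 to 5401 and 0 to 2670 in the 4 comparisons within a tissue, in the order of the text. Directions of differences that had not passed reversed 9 times. In 2KO against deltaEmu, Gp1ba turned to 0.27 when 2KO replicate 1 was left out and to 0.33 when deltaEmu replicate 5 was, and Vwf to 0.10 without 2KO replicate 1. In 2KO against RAG2_deficient, Itga2b lay between -0.19 (without RAG2_deficient replicate 3) and 0.44 (without replicate 2), and Gp9 between -0.69 (without replicate 3) and 0.29 (without replicate 2). In deltaEmu against RAG2_deficient, Pf4 was -0.40, Gp1bb -0.05, Ppbp -0.84 and Itga2b -0.45 without RAG2_deficient replicate 3, and 0.77, 0.61, 0.36 and 0.19 without replicate 2. Of the other values of single members, 361 kept direction and side of the threshold, 12 passed it and 5 lost it. The pool names 4_et_7 and 6_et_8 recur in both spleen groups, but same-named pools deviated oppositely (correlation -0.442 over 13913 genes). With them as a replicate block, Itga2b was -1.09 and 0 of 1 gene was called. With the names crossed, a fit chosen after seeing the data, it was -1.16 (adjusted p = 0.496) and 0 were called. Genes with 4 to 20 counts per library (Gp1ba, Gp1bb) are limited by depth.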

Other observations

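The gene clusters around Ppbp, Pf4 and Treml1 were read separately. Of 5 other CXC chemokine genes of chromosome 5, 2 had enough counts to be tested. Against RAG2_deficient, 1 of the 2 was called in 2KO and 1 in deltaEmu, where 4.31% and 9.81% of all genes tested were called. Cxcl2, a neutrophil attractant, rose in 2KO (114 ± 41.6 CPM) and in deltaEmu (124 ± 37.4 CPM) against RAG2_deficient (25.9 ± 11.1 CPM), with adjusted p = 0.0265 and 0.012, while 2KO and deltaEmu differed by log2 -0.10 ± 0.36 (adjusted p = 0.938). Cxcl1 averaged 0.563 ± 0.482, 0.471 ± 0.101 and 0.0889 ± 0.126 CPM in 2KO, deltaEmu and RAG2_deficient and did not pass in any femoral comparison. The order of Cxcl2 across the groups was thus unlike that of Pf4 and Ppbp, whose lowest pair was 2KO.

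Of 6 Trem family genes beside Treml1, 5 were in the table and all 5 were tested. In deltaEmu against RAG2_deficient, 2 of the 5 were called higher, where 9.81% of all genes tested were called in either direction. Trem1, a receptor of neutrophils and monocytes, rose in deltaEmu against RAG2_deficient (48.6 ± 16.4 against 17.0 ± 3.01 CPM, log2 1.47 ± 0.27, adjusted p = 0.0158), as did Trem3 (30.0 ± 1.63 against 17.3 ± 1.63 CPM, adjusted p = 0.0453). The neutrophil marker sum was also higher in deltaEmu, at 17700 and 20400 CPM, against 6860 and 7520 CPM in RAG2_deficient, and its part was not tested. Trem1 was no longer called without deltaEmu replicate 5 (adjusted p = 0.143), nor Cxcl2 in deltaEmu against RAG2_deficient (adjusted p = 0.114). Cxcl2 in 2KO against RAG2_deficient lost its call without 2KO replicate 1 or deltaEmu replicate 5 or 7 (adjusted p up to 0.0725). Trem3 lost its call under 6 of 11 settings, namely with all 10 libraries in a single fit and without any of 2KO replicates 1 and 3, deltaEmu replicates 5 and 7 and RAG2_deficient replicate 3 (adjusted p up to 0.258). In the same comparison Treml1 differed by log2 -0.30 ± 0.46 (adjusted p = 0.731).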
